A study of Mus musculus with 12 samples.

Results

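Transcript levels were compared between 3 h and 6 h after poly(I:C) in dendritic cells grown from C57BL/6 mouse bone marrow. The comparison used the arrays whose titles give 3 h or 6 h, which are 4 of the 12 arrays of a time course that also holds 0, 1, 12 and 24 h. Each time was measured once in each of 2 replicate experiments, and arrays of the same replicate number were paired. Marrow cells were grown for 6 days with GM-CSF, at 10 ng/ml per the labels, and then received poly(I:C), at 2.5 µg/ml per the labels. The methods text gives a higher concentration of both, and the labels give the age of the mice in 1 place as 3 to 4 months and in another as 8 to 10 weeks. According to the methods, the mice were female, 1 mouse supplied all cells of an experiment, and the cells were positively selected for the surface integrin CD11c. The 3 h and the 6 h cells therefore share, within an experiment, strain, mouse, growth factor and poly(I:C), and differ in the length of the exposure. No array of cells kept without poly(I:C) for 3 h or 6 h was analysed here, so poly(I:C) and time since plating cannot be told apart. On the array, a gene is read by 1 or more probe sets, and the value of a probe set is called its signal below. The step was described over all 45037 probe sets that are not controls, of which the brighter 22519 were tested, those not below the median in their mean over the series.

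Poly(I:C) is a synthetic double-stranded RNA that stands in for the genome or the replication products of a virus. Cells detect it with Toll-like receptor 3 inside endosomes and with the helicases RIG-I and MDA5 in the cytosol, and these receptors switch on IRF3, NF-kB and the gene of interferon beta. Interferon beta is secreted, binds a receptor on the same and neighbouring cells, and turns on a large set of genes that share a promoter element, the interferon-stimulated response element (ISRE). Among these is the gene of IRF7, which in turn switches on most of the interferon alpha genes, so an early wave of interferon is followed by a later and broader one. Activated dendritic cells also raise antigen presentation and co-stimulation, and leave the state of a growing, dividing precursor.

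Among the genes that passed from 3 h to 6 h, gains outnumbered losses, with interferon alpha genes at the top and with many genes that interferon is known to induce. A smaller set of genes fell, and it included several that take part in making ribosomes. In the limma fit, 123 probe sets were higher at 6 h than at 3 h, 0.546% of those tested, and 15 were lower, 0.0666% (Benjamini-Hochberg adjusted p under 0.05, n = 2 arrays a time). Taking for each gene the probe set with the highest mean, 76 of 10999 genes rose, 0.691%, and 12 fell, 0.109%. Irrespective of the test, 120 genes (1.09%) were at least 2-fold higher and 49 (0.445%) at least 2-fold lower in both experiments. A gene is said below to have risen or fallen only where it passed the test. Changes are given as log2 of the signal plus 16, which understates the change of dim genes, with the standard error of the fit. The log2 ratios of the 2 experiments, which come from separate arrays, correlated at r = 0.419 across the tested probe sets, a description since probe sets are not independent. All 138 called probe sets moved the same way in both experiments. The median tested gene lay at -0.08, and changes should be read against that level.

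**Figure D1:**
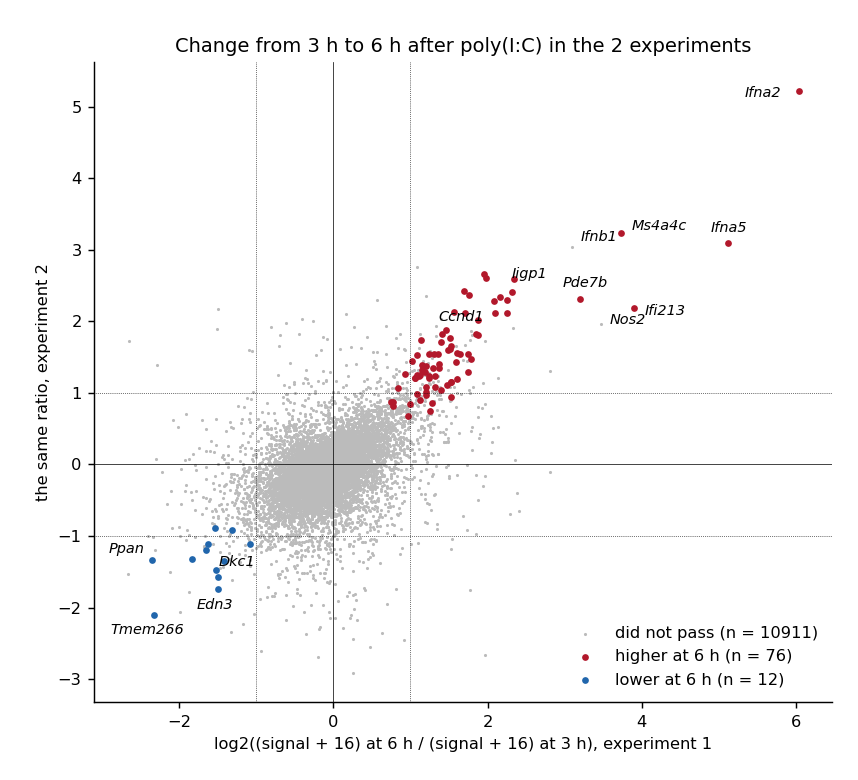
Log2 change from 3 h to 6 h in experiment 1 (horizontal axis) and experiment 2 (vertical axis), 1 point per tested gene, with the 76 genes that rose in red, the 12 that fell in blue and all others in grey. Dotted lines mark a 2-fold change, and the interferon alpha genes Ifna2 and Ifna5 stand farthest to the upper right.

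These counts rest on all 4 arrays and on the pairing by experiment. Without the experiment as a term in the fit (no replicate block), 3 probe sets passed as higher and 0 as lower in limma, with 575 and 541 at an unadjusted p under 0.05 against 1029 and 1166 with it. Leaving out 1 of the 12 arrays gave between 0 and 425 probe sets higher and between 0 and 161 lower. In limma 0 probe sets passed without experiment 2 at 3 h (667 higher and 390 lower at an unadjusted p under 0.05) or without experiment 1 at 6 h (536 and 514), and the highest counts came from leaving out a 24 h array, experiment 2 in both directions. With only the 4 arrays of the step in the fit, 1366 probe sets were higher and 1539 lower, so gains did not outnumber losses in that fit. A gene that did not pass is not shown to be unchanged.

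The interferon alpha genes Ifna2 and Ifna5 made the largest gains, from low signals at 3 h. Ifna2, which encodes an interferon alpha, read 20.7 and 7.54 at 3 h, then 2395 and 857 at 6 h, in experiments 1 and 2. Both 6 h arrays lay far above both 3 h arrays, a rise of 5.63 ± 0.67 on the log2 scale (adjusted p = 0.00769). Before poly(I:C) the same probe set gave 10.8 and 4.27. After 1 h it gave 127 and 12.3, so that experiment 1 was higher then than at 3 h. At 12 h it gave 739 and 578, and both experiments were highest at 6 h. Ifna5 read 9.70 and 23.1 at 3 h, then 881 and 317 at 6 h, again with no overlap between the times, and rose by 4.11 ± 0.72 (adjusted p = 0.0396), a call that was lost with an offset of 1 in place of 16. Interferon alpha genes are close copies of each other, and the Ifna5 probe set is of the class that the array's design marks as able to bind related transcripts. Which family member gave each signal was not tested. Among the genes named below as risen or fallen, the probe sets of Ms4a4c, Rrs1, Atad3a and Edn3 are of that class too. Those of Tlr3, Gar1, Parp3 and Tmem216 are of another class, which the design marks as matching several transcripts. Which transcripts they bound was not tested either. Ifna4 was too dim over the whole series to be tested, yet its signal was 49.98 and 6.75 at 3 h, then 1384 and 729.8 at 6 h. Ifnb1, the gene of interferon beta and the earliest of the family to be made, was already well above its 0 h values of 32.6 and 48.4 by the earlier time. It read 522 and 213 at 3 h, then 4588 and 1875 at 6 h, a change of 3.07 ± 0.89 that did not pass (adjusted p = 0.242). Of 10 interferon genes listed, 7 were on the array, 3 were tested and 2 of those rose. Testing required a high mean over all 12 arrays, and Ifna2 and Ifna5 met that largely through their 6 h and 12 h signals. The count for this list is therefore a description.

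Of all lists read, the interferon response list held the most genes that rose. Of the 41 tested members of an interferon response list, 20 rose (48.8%, against 0.691% of all genes) and 0 fell, and 40 lay above 0, with a median change of 1.24. The list and the others below were chosen with earlier results of these data known. The median of the list was 1.09 in experiment 1 and 1.31 in experiment 2. The largest rise in it was that of Ms4a4c, a membrane protein gene of the CD20 family, whose signal was 252 and 158 at 3 h, then 3547 and 1615 at 6 h. Both experiments moved by about the same factor, and the rise came to 3.48 ± 0.39 (adjusted p = 0.00608). Isg20, an exonuclease that degrades single-stranded RNA, read 925 and 396 at 3 h, then 4781 and 2471 at 6 h. Its rise of 2.47 ± 0.37 (adjusted p = 0.0203) left no overlap between the times.

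Several genes of the detection of viral RNA rose, helicases as well as the enzymes that they work beside. Ddx58, the gene of RIG-I itself, read 3358 and 3341 at 3 h, then 10148 and 9012 at 6 h, and the 2 experiments were nearly the same at each time (rise of 1.51 ± 0.16, adjusted p = 0.00574). Dhx58, which encodes the related regulator LGP2, read 1469 and 965 at 3 h, then 6329 and 4243 at 6 h and rose by 2.11 ± 0.27 (adjusted p = 0.00975). Ddx60, a further helicase of antiviral sensing, read 1101 and 287 at 3 h, then 4372 and 1834 at 6 h. Its lowest 6 h value was above its highest 3 h value, and both of its probe sets passed, with a gene-level rise of 2.29 ± 0.36 (adjusted p = 0.0218). Oas3, an oligoadenylate synthetase that makes the signal for RNA decay by RNase L, read 718 and 470.5 at 3 h, then 2468 and 2491 at 6 h and rose by 2.06 ± 0.30 (adjusted p = 0.0196). Its relatives Oas1a and Oasl2 rose by 1.27 ± 0.22 and 2.06 ± 0.32, while Oas2, at 1.69, did not pass. The gene of MDA5, Ifih1, had already gone up by 4.08 from 0 to 3 h and changed by 0.79 in the next step, which did not pass (adjusted p = 0.185).

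**Figure D2:**
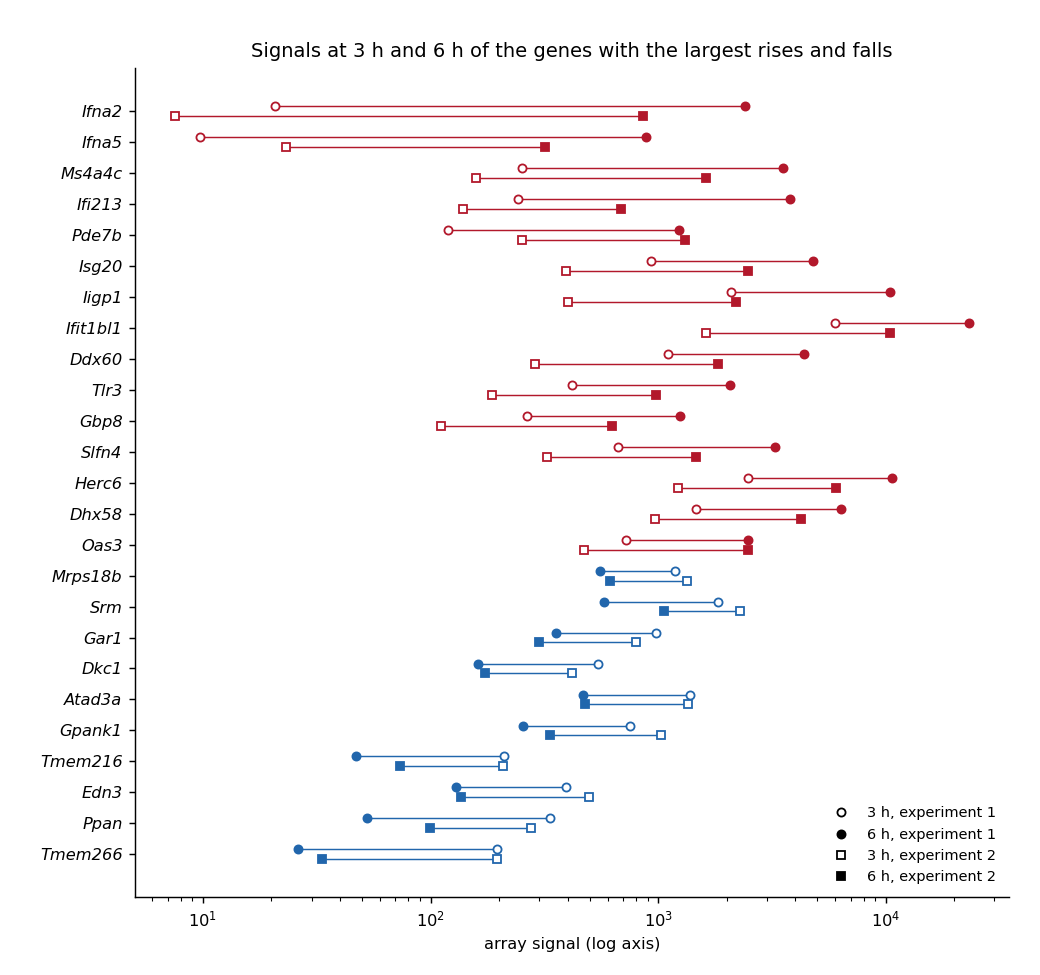
Signal (log axis) of the 15 genes with the largest rises (red) and the 10 with the largest falls (blue) among genes that passed and were at least 2-fold changed in both experiments; open symbols are 3 h, filled symbols 6 h, circles experiment 1 and squares experiment 2. In each experiment the line joins the 2 times, and all lines of a gene point the same way.

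Other leading gains of known interferon-induced genes followed the same pattern. Herc6, an E3 ligase that attaches the ubiquitin-like ISG15 in the mouse, read 2491 and 1227 at 3 h, then 10624 and 6047 at 6 h. It rose by 2.19 ± 0.20 (adjusted p = 0.00330), and all 4 of its probe sets passed. Ifi213, of the family of interferon-induced DNA-binding proteins around Ifi204, read 241 and 139 at 3 h, then 3807 and 688 at 6 h. Experiment 1 gained more than experiment 2, and the rise was 3.04 ± 0.48 (adjusted p = 0.0233). Ifit1bl1, of the family that binds foreign RNA ends, read 5968 and 1625 at 3 h, then 23206 and 10378 at 6 h and rose by 2.31 ± 0.34 (adjusted p = 0.0196). Slfn4, a Schlafen gene of myeloid cells, read 668 and 325 at 3 h, then 3253 and 1463 at 6 h, and it rose by 2.19 ± 0.39 (adjusted p = 0.0434), though not with an offset of 1. Its highest 3 h value was below its lowest 6 h value. Smaller rises in the list were those of Usp18, the protease that removes ISG15 and dampens interferon receptor signalling, by 1.17 ± 0.17, and of Bst2, which tethers budding virus to the cell, by 1.39 ± 0.17.

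Several interferon-induced genes with large gains by 3 h did not pass in this step, whose contrast shares the 3 h arrays with that gain. Ifit1, which binds viral RNA caps, had climbed by 6.99 from 0 to 3 h and read 13477 and 11869 at 3 h, then 20294 and 19918 at 6 h, a further change of 0.67 ± 0.27 (adjusted p = 0.438). Rsad2, the gene of the antiviral enzyme viperin, changed by 6.83 up to 3 h and by 0.52 after it (adjusted p = 0.735). For Cxcl10, a chemokine that attracts activated T cells, the corresponding values were 7.78 and 0.23 (adjusted p = 0.929). The signals of Cxcl10 were 20569 and 20371 at 3 h, then 23464 and 24529.8 at 6 h, so that each experiment changed by little. Zbp1, a sensor of Z-form nucleic acid, read 1683 and 1197 at 3 h, then 4264 and 4185 at 6 h on its brighter probe set, which missed the threshold (adjusted p = 0.0527), while its other probe set rose by 2.34.

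**Figure D3:**
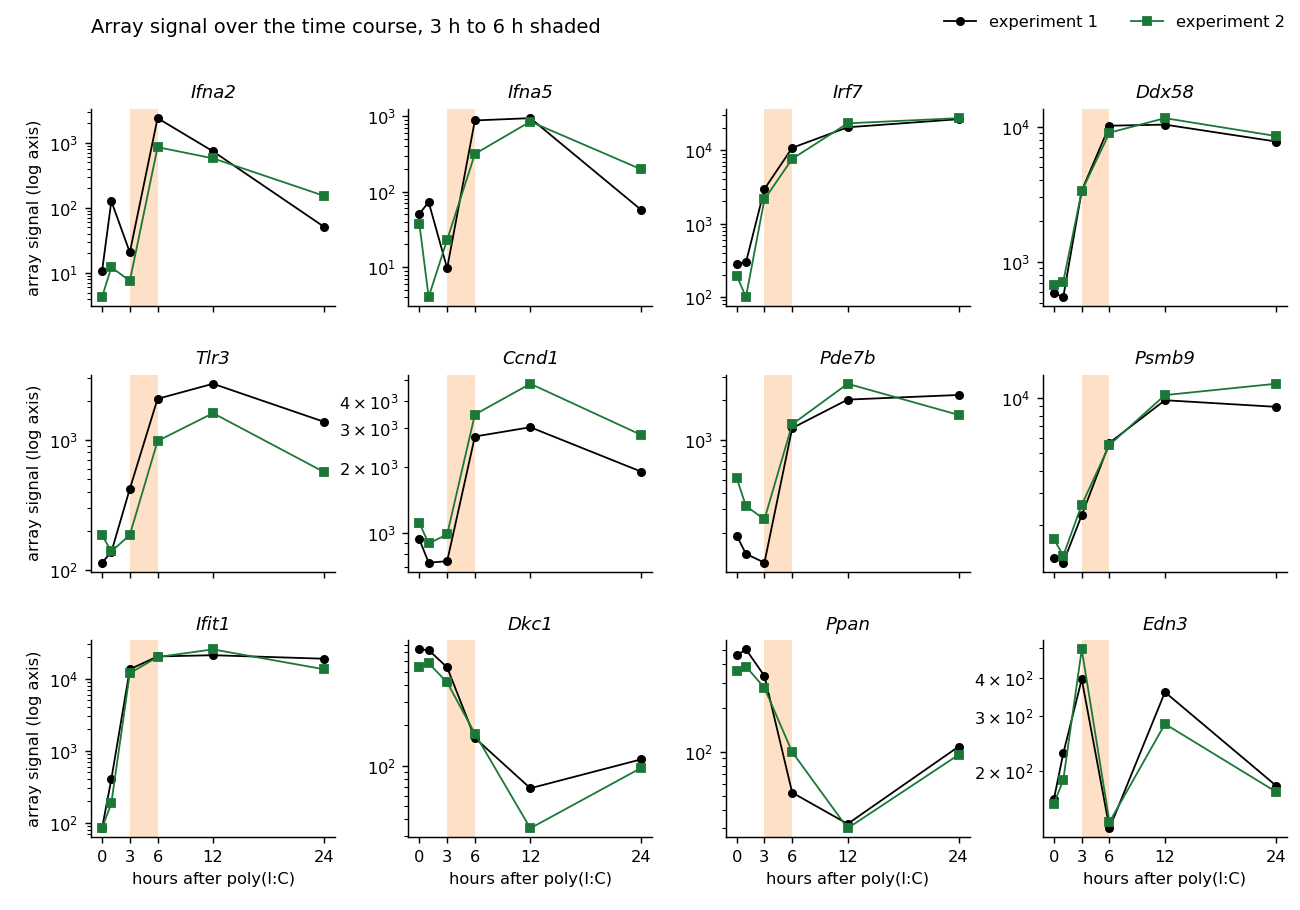
Array signal (log axis) against hours after poly(I:C) for 12 genes, experiment 1 in black and experiment 2 in green, with the span from 3 h to 6 h shaded. Ccnd1 and Pde7b are no higher at 3 h than at 0 h and higher at 6 h in both experiments, Ifit1 has reached most of its level by 3 h, and Edn3 rises until 3 h and falls by 6 h.

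Further families of interferon-induced defence proteins gained next to the response list. Of 8 tested interferon-inducible GTPases, which attack the membranes around intracellular pathogens, 4 rose (against 0.691% of all genes) and 0 fell, with a median of 1.10 and all 8 above 0. Iigp1, an immunity-related GTPase, read 2078 and 400.0 at 3 h, then 10414 and 2186 at 6 h, so that the 6 h value of experiment 2 was barely above the 3 h value of experiment 1. Within each experiment the gain was about the same, 2.36 ± 0.33 in the paired fit (adjusted p = 0.0137). The guanylate-binding proteins Gbp6, Gbp3 and Gbp2 rose by 1.60 ± 0.29, 1.45 ± 0.18 and 1.29 ± 0.22. A further member of that family outside the list, Gbp8, read 265 and 111 at 3 h, then 1245 and 627 at 6 h and rose by 2.25 ± 0.34 (adjusted p = 0.0203). A further list held PARP genes, which add ADP-ribose to proteins, and TRIM, RING and Herc6 ligase genes, which add ubiquitin or ISG15. Of its 23 tested members, 6 rose (26.1%, against 0.691% of all genes) and 0 fell, with a median of 0.89. They were Herc6, which the interferon response list holds too, Trim30d (1.67 ± 0.20), Parp11 (1.65 ± 0.26), Parp8 (1.63 ± 0.28), Parp12 (1.23 ± 0.17) and Parp3 (1.00 ± 0.18).

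Part of the machinery that loads peptides on MHC class I rose, and the class II genes did not pass. Among 17 tested class I processing genes, 5 rose (29.4%, against 0.691% of all genes) and 0 fell, with a median of 0.52. Nlrc5, the transactivator of class I genes, read 2180.4 and 785 at 3 h, then 5746 and 2608 at 6 h and rose by 1.55 ± 0.21 (adjusted p = 0.0137). Its experiments differed about as much as its times did, and the gain was of like size in each. Psmb9, a subunit of the immunoproteasome, which cuts proteins into peptides that fit class I, read 2275 and 2597 at 3 h, then 5679 and 5536 at 6 h, and rose by 1.20 ± 0.16 (adjusted p = 0.0111). Its partner Psmb10 rose by 1.01 ± 0.16. Tap1, a subunit of the peptide pump into the endoplasmic reticulum, read 3386 and 2101 at 3 h, then 7407 and 5044 at 6 h and rose by 1.19 ± 0.15 (adjusted p = 0.00909). The non-classical class I gene H2-T24 rose by 1.40 ± 0.23, whereas B2m, the common light chain, was already bright and changed by 0.18 (95% interval -0.10 to 0.46). All 12 tested MHC class II presentation genes missed the threshold, with a median of 0.10 and 1 gene higher at an unadjusted p under 0.05. At that level 1029 of all 22519 tested probe sets were higher. H2-Ab1, a class II beta chain, changed by 0.26, with a 95% interval of -0.28 to 0.80.

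Among the sensors and the transcription factors of the pathway, single genes passed. Tlr3, the endosomal receptor for poly(I:C), was 1 of 19 tested sensors and adaptors, a list without the helicases above, and the one that rose (5.26%, against 0.691% of all genes). It read 420.1 and 186 at 3 h, then 2070.3 and 981 at 6 h, with both 6 h values above both 3 h values, a rise of 2.28 ± 0.41 (adjusted p = 0.0438). Its other tested probe set moved by 1.88 and just missed the threshold (adjusted p = 0.0580). Irf7 was 1 of 13 tested IRF and STAT genes and likewise the one that rose (7.69%, against 0.691% of all genes). Its signal was 2958 and 2139 at 3 h, then 10751 and 7614 at 6 h after 284 and 196 at 0 h, and it rose by a further 1.84 ± 0.31 (adjusted p = 0.0338). With an offset of 1 in place of 16, both genes missed the threshold. Stat2, a subunit of the interferon-activated factor, moved by 0.86 ± 0.17 (adjusted p = 0.0637). The inflammatory cytokines (16 tested), chemokines (22), NF-kB pathway genes (27) and co-stimulatory genes (22) held no gene that passed in the limma fit in either direction. Their medians were 0.61, 0.16, 0.21 and 0.57. At least 2-fold higher in both experiments were 1, 2, 0 and 4 of their genes (6.25%, 9.09%, 0% and 18.2%, against 1.09% of all genes), and 0 were 2-fold lower. At an unadjusted p under 0.05, 7, 3, 3 and 11 of their genes were higher and 0, 1, 0 and 0 lower. Over all 22519 tested probe sets, 1029 were higher and 1166 lower at that level. Cd86, a ligand of CD28 on T cells, came closest in the co-stimulatory group, with 1491 and 1033 at 3 h, then 4327 and 1944 at 6 h, a change of 1.21 ± 0.23 (adjusted p = 0.0550). Its values at the 2 times were apart, by less in experiment 2 than in experiment 1. Tnf, an early inflammatory cytokine, moved by 0.87 ± 0.24 (adjusted p = 0.207), and Nos2, which makes nitric oxide, read 13.2 and 11.7 at 3 h, then 308 and 91.9 at 6 h (adjusted p = 0.0671).

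**Figure D4:**
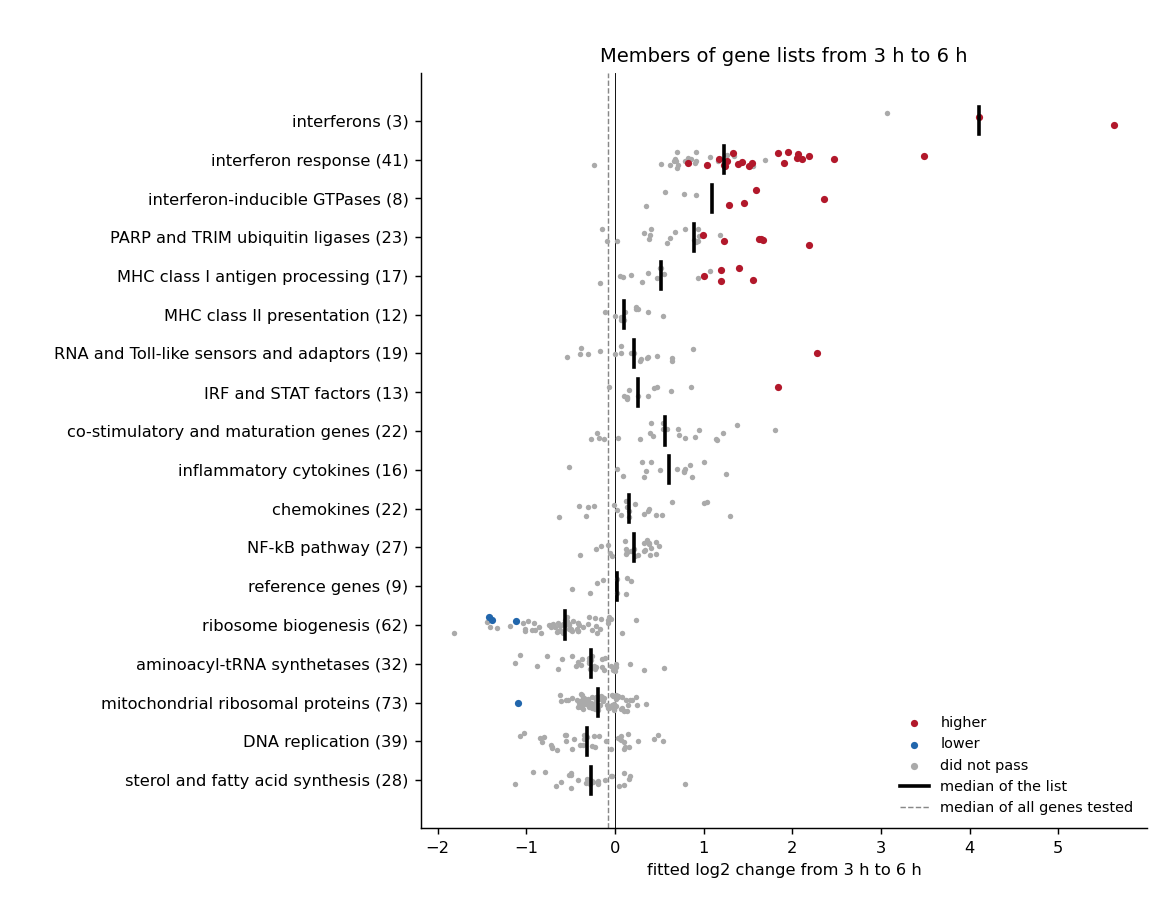
Fitted log2 change from 3 h to 6 h of each tested member of 18 gene lists (number tested in brackets), red where the gene rose, blue where it fell and grey where it did not pass; the black bar is the median of the list and the dashed line that of all genes tested. The interferon response and GTPase lists lie to the right, with medians of 1.24 and 1.10, and ribosome biogenesis to the left, at -0.56. The interferon list also lies to the right (median 4.11), but its 3 tested genes were selected by a mean that includes their high times.

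The genes that rose were split by what they had done before. From 0 h to 3 h, 38 of the 76 genes that rose had changed by less than 2-fold, and the other 38 had already gone up by 2-fold or more, so the later rise continued an earlier one. On the level of probe sets, 58 of 123 gains were new, 64 continued and 1 had turned from an earlier fall. Both contrasts share the 3 h arrays with opposite sign, so this split is a description. Of the new gains outside the interferon lists, that of Pde7b was the largest. Pde7b, a phosphodiesterase that degrades the second messenger cAMP, read 119 and 252 at 3 h, then 1229 and 1313 at 6 h after 190.4 and 515 at 0 h. It rose by 2.76 ± 0.39 on its brightest probe set (adjusted p = 0.0150), and its 2 dimmer tested probe sets moved by 2.00 and 1.28 without passing. Ccnd1, the gene of cyclin D1, which drives cells through G1, read 740.2 and 981 at 3 h, then 2756 and 3473 at 6 h after 931 and 1106 at 0 h. It rose by 1.84 ± 0.17, with the smallest adjusted p among genes of the step (0.00330, shared with Herc6), and all 3 of its probe sets passed. It was the 1 gene that passed of 16 tested G1 cyclins and CDK inhibitors (6.25%, against 0.691% of all genes), whose median was -0.15.

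Further genes with gains under 2-fold by 3 h are given as single genes, most of them picked after their values were seen. The lists that hold Mlkl and Fcgr1 had 1 gene each that rose, of 21 tested genes of apoptosis and survival and of 29 endocytic, lectin and scavenger receptors, against 0.691% of all genes. Mlkl, the pore former of necroptosis, read 1713 and 1731 at 3 h, then 4769.9 and 3772 at 6 h and rose by 1.29 ± 0.17 (adjusted p = 0.0111). Fcgr1, the high-affinity receptor for IgG, read 2744 and 1711 at 3 h, then 7235 and 3537 at 6 h and rose by 1.22 ± 0.20 (adjusted p = 0.0244). In both genes the times did not overlap. Samhd1, which depletes the nucleotides that reverse transcription needs, read 8059 and 6064 at 3 h, then 19020.1 and 14046 at 6 h and rose by 1.22 ± 0.15 on 1 of 5 tested probe sets (adjusted p = 0.00766). Apobec3, a cytidine deaminase that mutates retroviral DNA, rose by 1.28 ± 0.18, and Ifitm3, which blocks virus entry, by 1.04 ± 0.16, after a smaller gain of 0.87 from 0 to 3 h that had also passed (adjusted p = 0.0242). Ptpn6, the gene of the inhibitory phosphatase SHP-1, rose by 1.07 ± 0.18, Slamf8, a receptor of myeloid cells, by 1.24 ± 0.18, and Cfb, the complement factor B, by 1.40 ± 0.26.

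The ISRE was searched in the promoter windows that RefSeq gives for GRCm38.p6, the 250 bases before the annotated start. Its core was taken as GAAA, any 2 bases and GAAA again, on either strand, with overlapping matches counted apart. Of 66 genes that rose and have a window, 18 held a match (27.3%), and of 7 genes that fell and have a window, 0 did. Over all tested genes with a window the share was 3.33%, and over all windows given by RefSeq 2.98%. Genes with a new gain held it in 23.5% and genes with a continued gain in 31.2%. The NF-kB site by its usual consensus was found in 19.7% of the genes that rose, in 14.3% of those that fell, in 10.5% of all tested and in 7.25% of all windows. These are matches of letters, not bound sites, and no window was given here for Ccnd1 and Dhx58. The following stretches show the matches in 6 of the 18 genes, with the matching letters in capitals, each written 5′ to 3′ along the strand of its gene and with 20 bases on each side where the window has them. Ifna2 and Ifna5 are shown for the largest gains, Oas1a and Gbp3 for gains that continued, and Parp11 and Lgals9 for new ones.
Ifna2, chr4:88683914-88684029, minus strand: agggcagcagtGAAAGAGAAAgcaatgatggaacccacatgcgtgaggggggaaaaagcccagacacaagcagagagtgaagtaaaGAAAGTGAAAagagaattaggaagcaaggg
Ifna5, chr4:88835340-88835389, plus strand: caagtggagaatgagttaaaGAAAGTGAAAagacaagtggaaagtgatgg
Oas1a, chr5:120907526-120907565, minus strand: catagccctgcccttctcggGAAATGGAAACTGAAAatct
Gbp3, chr3:142559979-142560034, plus strand: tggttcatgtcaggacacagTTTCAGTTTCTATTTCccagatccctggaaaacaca
Parp11, chr6:127446776-127446825, plus strand: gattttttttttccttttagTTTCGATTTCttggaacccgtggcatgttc
Lgals9, chr11:78984950-78984999, minus strand: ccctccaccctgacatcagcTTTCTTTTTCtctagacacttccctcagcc
Ifna2 and Ifna5 hold the same letters in the match 164 and 165 bases before the annotated start, where Ifna2 has a further match at 239. In Oas1a and in Gbp3, a pair of matches overlap, the nearer beginning 14 and 39 bases before the start, and in Gbp3, Parp11 and Lgals9 the letters read as the reverse complement, with TTTC in place of GAAA. Lgals9, the gene of galectin-9, a lectin that binds several immune receptors, read 8466 and 9081 at 3 h, then 16931 and 16256 at 6 h and rose by 0.92 ± 0.14 (adjusted p = 0.0209). Parp11 read 728 and 578 at 3 h, then 2489.9 and 1714 at 6 h, with both 6 h values above both 3 h values.

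The losses were fewer, and 4 of the 12 genes that fell take part in ribosome production. Ppan, a factor of the large ribosomal subunit, read 333 and 276 at 3 h, then 52.4 and 99.8 at 6 h. The 6 h values were well below the 3 h values in each experiment, and the gene fell by 1.84 ± 0.32 on the log2 scale (adjusted p = 0.0396). Dkc1, the pseudouridine synthase of ribosomal RNA and a part of telomerase, read 542 and 419 at 3 h, then 161 and 174 at 6 h and fell by 1.43 ± 0.25 (adjusted p = 0.0405), with 2 of 3 probe sets passing. Gar1, which sits in the same small nucleolar particle as Dkc1, read 978 and 795 at 3 h, then 354 and 301 at 6 h and fell by 1.39 ± 0.22 (adjusted p = 0.0227). Rrs1, a regulator of ribosome assembly, read 3017 and 2501 at 3 h, then 1197 and 1317 at 6 h and fell by 1.12 ± 0.20 (adjusted p = 0.0405), on 1 of 2 tested probe sets. In these 4 genes the times did not overlap. With each array centred on its median, Ppan kept its call, while Dkc1, Gar1 and Rrs1 missed the threshold.

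The list of ribosome biogenesis genes, which does not hold Ppan, had low values nearly throughout. Of 62 tested members 3 fell, which were Dkc1, Gar1 and Rrs1, and 0 rose (4.84%, against 0.109% of all genes). In all, 7 members (11.3%, against 0.445% of all genes) were at least 2-fold lower in both experiments, and 60 of 62 lay below 0, where 6673 of all 10999 genes did. The median was -0.56, at -0.64 in experiment 1 and -0.50 in experiment 2, and it stayed below that of all genes when each array was centred on its median (-0.42) or quantile normalized (-0.52). Members with large changes that did not pass were Nop58, a core protein of small nucleolar particles, at -1.81 ± 0.62 (adjusted p = 0.335), and Wdr75, of the complex that processes the small subunit, at -1.33 ± 0.32 (adjusted p = 0.150). Mitochondrial ribosomal protein genes had 1 fall among 73 (1.37%, against 0.109% of all genes), that of Mrps18b. This gene read 1190.2 and 1338 at 3 h, then 556 and 612 at 6 h and fell by 1.09 ± 0.20 (adjusted p = 0.0452). It missed the threshold with each array centred on its median. The median of these genes, -0.19, was close to that of all genes. The 32 tested aminoacyl-tRNA synthetases and the 33 translation factors held no gene that passed in the limma fit, with medians of -0.27 and -0.22. At an unadjusted p under 0.05, 5 genes of each were lower and 0 higher, where 1166 of all 22519 tested probe sets were lower and 1029 higher.

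Other genes that fell have roles outside the ribosome. Srm, the enzyme that makes the polyamine spermidine, read 1827 and 2294 at 3 h, then 578 and 1055 at 6 h and fell by 1.37 ± 0.23 (adjusted p = 0.0285). Atad3a, a membrane ATPase of mitochondria, read 1375 and 1354 at 3 h, then 467 and 475 at 6 h, nearly the same in both experiments, and fell by 1.503 ± 0.22 (adjusted p = 0.0196) on 1 of 4 probe sets, the others moving by -0.67 to -1.28. Cdh1, the gene of the adhesion protein E-cadherin, read 2953 and 2076 at 3 h, then 1008 and 1117 at 6 h and fell by 1.21 ± 0.21 (adjusted p = 0.0405), though by less than 2-fold in experiment 2. In each of the 3 genes both 6 h values lay below both 3 h values. Cdh1 did not pass with the arrays centred on their medians or quantile normalized.

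In 4 of the 12 genes that fell, the level did not go further down by 12 h. Edn3, the gene of the small peptide endothelin-3, had risen from 162 and 156 at 0 h to 395 and 494 at 3 h, came back to 130 and 136 at 6 h and read 359 and 283 at 12 h. It was the 1 gene that fell after an earlier gain of 2-fold or more, and its fall was 1.62 ± 0.25 (adjusted p = 0.0209). Tmem266, the gene of a membrane protein with a voltage-sensor fold, read 195 and 195 at 3 h, then 26.1 and 33.3 at 6 h, after 114 and 112 at 0 h. Its fall of 2.21 ± 0.37 was the largest of the step (adjusted p = 0.0298). Tmem216, a gene of the primary cilium, read 209.8 and 208 at 3 h, then 47.1 and 73.7 at 6 h and fell by 1.58 ± 0.28 (adjusted p = 0.0405), while its other tested probe set moved by -0.27. Gpank1 read 752 and 1029 at 3 h, then 256 and 335 at 6 h, after 356 and 570 at 0 h. It fell by 1.54 ± 0.24 (adjusted p = 0.0214), and its other probe set moved by -0.33. From 0 h to 6 h the probe set that fell changed by -0.60, which did not pass (limma adjusted p = 0.184). For Tmem216 and Gpank1 the 2 probe sets thus disagree in size, and which transcript each reads was not tested. From 6 h to 12 h the fitted changes of Edn3, Tmem266, Tmem216 and Gpank1 were 1.17, 0.45, 1.23 and 0.39.

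The step was set beside its neighbours by counts. From 1 h to 3 h, 194 probe sets were higher (0.861%) and 16 lower (0.0711%), and from 6 h to 12 h, 142 were higher (0.631%) and 257 lower (1.14%). Neighbouring steps share arrays, so these counts were not tested against each other. The next counts go by the size of the fitted change alone. Of the 76 genes that rose from 3 h to 6 h, 16 went up by a further 2-fold or more by 12 h, 59 stayed within 2-fold, and Ifna2 alone came down by more than 2-fold. Its fitted change was -1.12 and did not pass (limma adjusted p = 0.448). Ifna2 went from 2395 to 739 in experiment 1 and, by less, from 857 to 578 in experiment 2. Of the 12 that fell, 5 went down by a further 2-fold or more, which were Srm, Cdh1, Dkc1, Gar1 and Atad3a, 5 stayed within 2-fold, and Edn3 and Tmem216 came back up by 2-fold or more.

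Marker genes were read to see whether the cells kept their kind over the 3 h. The 11 tested dendritic cell markers held none that passed in limma, with a median of 0.07. At an unadjusted p under 0.05, 1 was lower and 0 higher, where 1029 of all 22519 tested probe sets were higher and 1166 lower. Members moved both ways without passing, from -0.98 for Clec10a to 1.16 for Ccr7. At least 2-fold higher in both experiments was 1 of the 11 (9.09%, against 1.09% of all genes). Itgax, the gene of CD11c, read 18281 and 18836 at 3 h, then 18481 and 20436 at 6 h. Of 13 such markers, all on the array, none was below a signal of 16 on all 4 arrays. Among 9 tested macrophage and monocyte markers 1 rose, Fcgr1, against 0.691% of all genes. Among 5 tested plasmacytoid dendritic cell markers 1 rose, Bst2, against the same share of all genes. The summed signal of the plasmacytoid list, 8 genes on the array, went from 4506 and 4472 to 8031 and 9793, in which Bst2 alone read 1937 and 2971 at 3 h, then 5042 and 7909.5 at 6 h. That of the macrophage list, 11 genes, went from 82760.0 and 83971 to 91760.5 and 88914. The sum of the T and NK cell markers, 13 genes, was 495 and 751 at 3 h and 439.5 and 486 at 6 h. That of the B cell markers, 8 genes, was 548 and 713 at 3 h and 556 and 374 at 6 h, where the dendritic cell markers summed to between 98507 and 106966 on the 4 arrays. The sum of the stromal, endothelial and erythroid markers, 12 genes, went from 929 to 1425 in experiment 1 and from 1004 to 1252 in experiment 2, and none of the 3 tested passed. In it Kdr, an endothelial receptor of VEGF, read 313 and 289 at 3 h, then 912 and 649.5 at 6 h (adjusted p = 0.242). The sum of the mast cell, basophil and eosinophil markers, 10 genes, went from 328 to 485 and from 337 to 338. Neutrophil markers, 12 genes, summed to 21269.8 and 29740.4 at 3 h and to 22843 and 31354 at 6 h. The part of other cells in the changes was not tested, and in such mixed RNA fewer cells of a type and less RNA per cell cannot be told apart.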

How the data were processed

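RNA was hybridized to Affymetrix mouse arrays, 12 in all, and the 4 arrays of 3 h and 6 h form the comparison. The deposited table holds 1 intensity per probe set and array on a linear scale, which the authors normalized with the Affymetrix MAS algorithm and its default settings, which bring arrays to a common mean. Precision is set by how few arrays there are. Median signals of the 4 arrays ran from 71.8 to 86.3, and 19.7% to 22.5% of signals were below the offset of 16. All 12 arrays entered a limma fit (version 3.58.1, R 4.3.3) of log2(signal + 16), with time and experiment (replicate block) as terms and an intensity trend (5 residual and 5.22 prior degrees of freedom), and the contrast of 6 h minus 3 h was tested with Benjamini-Hochberg adjustment at 0.05. Probe sets below the median mean were not tested. The methods compare each time with the baseline of the same experiment, and 1 mouse gave each experiment, which is where the pairing comes from. Deviations from the time means correlated within experiments at r = 0.25 to 0.66 over 15 pairs of times.

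A gene is its brightest probe set among the 34945 with 1 symbol in the platform annotation; 932 probe sets have several and 9160 none. Named were the 15 largest rises and 15 largest falls (10 qualified) among genes that passed and changed at least 2-fold in both experiments, up to 4 members of a list by p, and genes named to say that they did not pass. Genes named beyond these were chosen after their values were seen. Ifi213, Iigp1, Tap1, Fcgr1, Gbp2, Gbp6, Parp11 and Ptpn6 passed on 1 of 2 tested probe sets, Parp3 on 1 of 3, and Ddx58 and Dhx58 on 2 of 3. The members and lists were chosen with earlier results of these data known. New means a fitted change under 2-fold from 0 to 3 h. The test was checked on simulated data. Alternatives covered offset, filter, scaling, block, trend, arrays in the fit and probe set. The authors' own change calls were not used here.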

Additional observations from a re-analysis of the deposited data

How the results depend on the processing

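The counts of 76 genes higher and 12 lower depend on the spread borrowed from all 12 arrays and on the pairing. Without the replicate block, 3 probe sets were higher and 0 lower and 0 genes passed in either direction; with it and no intensity trend the counts were 17 and 2 probe sets and 6 and 2 genes. With the replicate block and only the 4 arrays of the step they were 1366 and 1539 probe sets (790 and 812 genes), and with the 8 arrays of 0, 3, 6 and 12 h 403 and 101 (243 and 57 genes). Leaving out 1 array in turn gave 0 to 425 probe sets and 0 to 254 genes higher, and 0 to 161 probe sets and 0 to 89 genes lower, the highest without a 24 h array. An alternative chosen after seeing the data, without both 24 h arrays, gave 417 and 166 probe sets and 248 and 91 genes, and all 88 genes of the report were among them. In none of these settings did a named gene that passed change direction.

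Scaling mattered most for the falls. With each array centred on its median, 157 probe sets and 96 genes were higher, and 8 probe sets and 6 genes lower, and the median tested gene moved from -0.08 to 0.06. At an unadjusted p under 0.05 the split then went from 1029 higher and 1166 lower to 1509 and 448. Without a filter, 7 probe sets and 7 genes were lower. Itgax, near 0 in the fit, came to -0.0026 with quantile normalization and to between -0.031 and 0.16 with 1 array left out. The counts stayed within 1.5 times of those reported with an offset of 1 or 64, with the filter at the upper quartile, with quantile normalization and with any probe set of a gene. Centring each array or removing the filter left the gains within 1.5 times. Of 56 named genes that passed, 47 kept their call with an offset of 1 (not Ifna5, Tlr3, Slfn4, Dkc1, Mrps18b, Gbp6, Irf7, Cfb and Parp3), 55 with an offset of 64 (not Tmem216) and 49 without a filter (not Tmem266, Ppan, Tmem216, Dkc1, Mrps18b, Cfb and Parp3). With centring 50 kept it (not Tmem216, Dkc1, Gar1, Mrps18b, Rrs1 and Cdh1), and with quantile normalization 52 (not Dkc1, Gbp6, Cdh1 and Parp3). The cause of these changes was not tested. The arrays, 2 at each time from 1 mouse each, limit all statements to these cultures.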

Other observations

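The lists of DNA replication, of sterol and fatty acid synthesis and of heat shock and chaperonin genes had no gene that passed in limma, and their medians are given as values. DNA replication genes, 39 tested, had a median change of -0.31 from 3 h to 6 h, with 8 lower and 1 higher at an unadjusted p under 0.05. At that level 1166 of all 22519 tested probe sets were lower and 1029 higher. Mcm3, a subunit of the replicative helicase, read 1022 and 1695 at 3 h, then 554 and 738 at 6 h (adjusted p = 0.163), and Rrm2, the small subunit of ribonucleotide reductase, read 1861 and 2572 at 3 h, then 706 and 1507 at 6 h (adjusted p = 0.0924). Both genes were lower at 6 h in each experiment. Sterol and fatty acid synthesis genes, 28 tested, had a median of -0.27, and heat shock and chaperonin genes, 20 tested, of -0.21. Each of the last 2 lists had 2 genes lower and 1 higher at an unadjusted p under 0.05. With each array centred on its median, these 3 medians were -0.17, -0.13 and -0.07, where that of all genes was 0.06.

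Some single genes outside the lists described so far changed by much without passing. Per1 is from a list of the circadian clock (13 tested) and Mxd1 from one of the MYC network (11 tested). In limma 0 genes of either list passed, and members moved both ways. The changes ran from -0.51 to 1.24 in the clock list and from -1.11 to 1.41 in the MYC list. Per1, a repressor of the circadian clock, moved by -1.23 from 0 to 3 h and by 1.24 from 3 to 6 h (adjusted p = 0.0761), with signals of 102 and 122 at 3 h, then 252 and 321 at 6 h. Mxd1, which competes with MYC for its partner, moved by 1.41 ± 0.31 (adjusted p = 0.101). Ptger2, a prostaglandin E2 receptor, read 785 and 889 at 3 h, then 281 and 321 at 6 h, a change of -1.43 ± 0.28 (adjusted p = 0.0638). Of the 123 probe sets that were higher, 14 have no gene symbol in the annotation used and 6 have several, and of the 15 that were lower 2 have none.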
